A study of Tribolium castaneum with 183 samples.

Results

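Heat in dry air was read from the comparison of Hot-Dry females, kept at 37°C and 30% relative humidity, with Dry females, kept at 33°C and 30%. The comparison took in 91 red flour beetles (*Tribolium castaneum*), 43 Hot-Dry and 48 Dry females. Females were chosen by their names in the table, in which HD marks Hot-Dry and a D after a number marks Dry. The series also holds 45 Hot females (37°C and 70%) and 47 Control females (33°C and 70%), which were used to measure the same step in temperature in more humid air. All came from the wild-derived strain Cro1, were 8 weeks old according to the labels (the text of the study gives an older age at measurement), and belonged to 12 full-sib families whose eggs were divided over the conditions. Sisters in the same condition grew up in the same vial. Hot-Dry held 3 females in 5 families and 4 females in 7 families, whereas Dry held 4 females in each of the 12 families. Whole bodies of mated females were extracted, so that fewer cells of a type and less RNA per cell cannot be told apart.

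In insects the fat body makes the yolk protein precursor vitellogenin, which is secreted, carried to the ovary and taken up into growing eggs by receptors. Ecdysteroids, juvenile hormone and nutrient signalling through insulin and TOR regulate this supply. Chitin is the fibre of the cuticle and of the matrix that lines the midgut, and it is cut by chitinases when these layers are renewed.

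Between 6382307 and 13690047 reads were counted per Hot-Dry female, and between 5839127 and 14309507 per Dry female. At the median library size 3 counts made 0.331 cpm (read counts scaled to a common library size) in Hot-Dry and 0.312 cpm in Dry, a limit that covers counting error only. Testing was restricted to the 12113 genes that reached more than 0.5 cpm in 5 or more females of the series, and a gene was called at an adjusted p of 0.05 or less. Each gene carries its identifier in the Tcas3 annotation, and functions are given where the supplement of the study names one.

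Libraries of some Hot-Dry females stood apart by their vitellogenin reads. The share of all counted reads that fell on the genes Vg1 (TC013602) and Vg2 (TC010839) was 0.0756% to 21.1% in Hot-Dry females (median 12.9%) and 9.48% to 27.6% in Dry females (median 18.5%). Of the 43 Hot-Dry females, 42 lay below the Dry median, and 9 lay below every Dry female. These 9 females belonged to 6 families, and 3 of them had under 1% of reads on the pair of genes: 0.0756% in family 1077, 0.111% in family 293 and 0.375% in family 638. Among the other conditions, 7 Hot and 2 Control females lay below the Dry range. The total counts of the 9 females ran from 6382307, the lowest in Hot-Dry, to 12194575. Averaged over sisters, the share was lower in Hot-Dry than in Dry in 11 of 12 families, with a mean difference of -6.42 percentage points (SD 4.22, exact two-sided sign-flip permutation test over 12 families, p = 0.00098). The family differences ran from -12.3 points in family 1077 to 1.47 points in family 863. Without the 9 females the mean difference was -4.59 points.

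**Figure D1:**
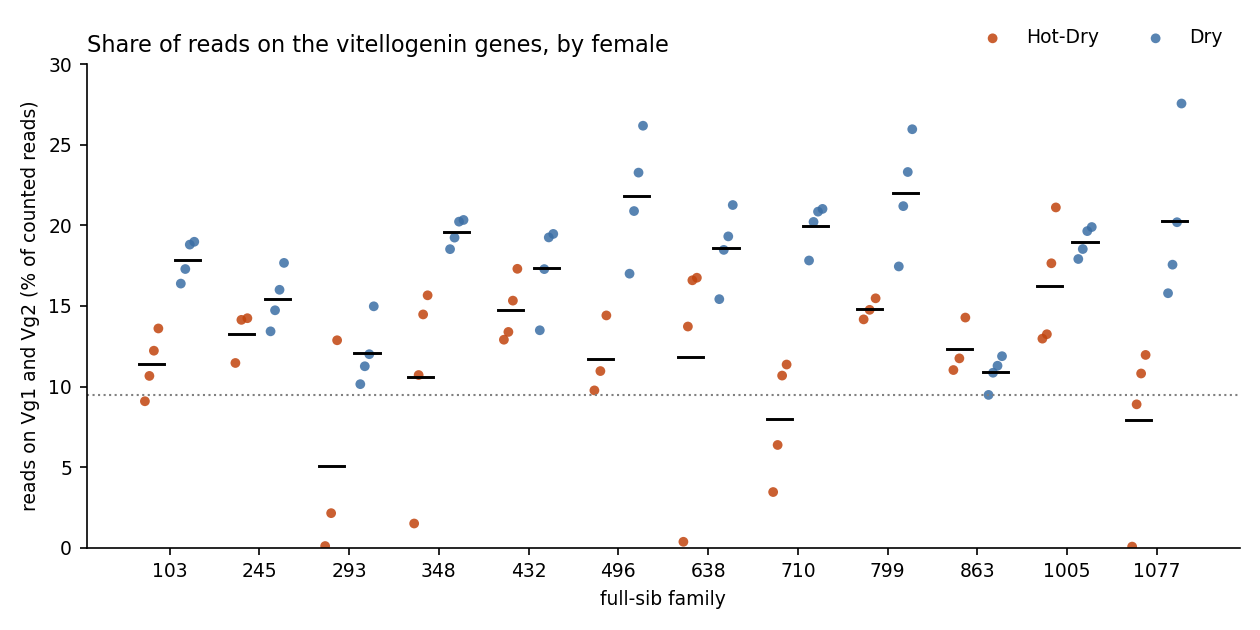
Percentage of counted reads on Vg1 and Vg2 (vertical axis) in each Hot-Dry and Dry female, by full-sib family (horizontal axis); points are females, bars are family means and the dotted line is the lowest Dry female at 9.48%. Family means were lower in Hot-Dry in 11 of 12 families, and 9 Hot-Dry females lay under the dotted line.

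Of the 12113 genes tested, 1995 were higher in Hot-Dry than in Dry (16.5%) and 1915 were lower (15.8%), 32.3% in all. Most changes were small: the called genes had a median absolute log2 fold change of 0.30, with 188 genes above 1 and 85 genes below -1. For 2594 of the called genes the family means differed in the called direction in at least 10 of 12 families, and this held in all 12 families for 317 higher and 254 lower genes. No gene separated every Hot-Dry female from every Dry female. The first principal component over the 91 females held 15.3% of the variance, of which family accounted for 42.83% and condition for 0.033%. The second component held 9.95%, of which condition accounted for 74.15%, and 38 Hot-Dry females lay above every Dry female on it.

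Sisters of the same family and condition resembled each other (estimated correlation 0.35), so that p-values over single females rest on fewer independent units than libraries. When counts were summed per family and condition, 1603 genes were higher (13.2%) and 1450 lower (12.0%), and 2937 of these 3053 genes were also called over single females, all in the same direction. A model with the estimated correlation (limma-voom) called 818 genes higher (6.75%) and 740 lower (6.11%), of which 1552 were also called over single females, all in the same direction. Of the 72 named genes called over single females, 18 were not called with this correlation. Without the 9 females low in vitellogenin 1681 genes were higher and 1455 lower, and 2920 of them were shared with the full comparison.

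The genes with the largest rises carry few annotations. Among called genes that averaged 5 cpm or more and had the same direction in at least 10 families, the 12 largest rises had log2 fold changes of 1.85 to 5.87 and the 12 largest falls of -1.35 to -3.27. A function was listed for 3 of the rises (an inward rectifier potassium channel, a chitinase and a serine-type endopeptidase) and for 0 of the falls. TC006158, the largest rise, ranged from 0 to 666 cpm in Hot-Dry females (median 1.72), against 0 to 23.7 cpm in Dry females (median 0). It was at 0 in 9 Hot-Dry and 28 Dry females, 13 Hot-Dry females lay above every Dry female, and 5 females held 76.6% of its summed cpm in Hot-Dry (log2 fold change 5.87 ± 0.63 SE, adjusted p = 9.7e-15). Its neighbour in the numbering, TC006157, showed the same picture, with 0 to 931 cpm in Hot-Dry females (median 4.35), against 0 to 40.5 cpm in Dry females (median 0.231) and 69.9% of the summed Hot-Dry cpm in 5 females (log2 fold change 5.64 ± 0.62 SE, adjusted p = 3.4e-14). Both rises thus rested on part of the females, though both were higher in 10 of 12 families. Over summed counts the adjusted p-values of TC006158 and TC006157 were 1.5e-05 and 5.1e-05. With the estimated correlation the log2 fold changes were 4.17 and 3.79 (limma-voom, adjusted p = 0.013 and 0.034).

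In 4 of the 12 largest falls all Hot-Dry females lay below the Dry median, and in the others at least 34 of 43 did. TC016395 ranged from 0 to 4.64 cpm in Hot-Dry females (median 0.651), against 0.292 to 32.3 cpm in Dry females (median 7.23). Of the Hot-Dry females 16 were below every Dry female, 10 of them at 0, and the gene was lower in 12 of 12 families (log2 fold change -3.27 ± 0.35 SE, adjusted p = 1.6e-14). TC015476 ranged from 0 to 14.1 cpm in Hot-Dry females (median 2.35), against 2.20 to 52.4 cpm in Dry females (median 15.0), with 21 Hot-Dry females below every Dry female and the same direction in 12 of 12 families (log2 fold change -2.24 ± 0.24 SE, adjusted p = 6.5e-15). The endopeptidase TC005925, a protein-cutting enzyme, ranged from 2.47 to 144 cpm in Hot-Dry females (median 54.1), against 0.0977 to 111 cpm in Dry females (median 5.44). It was above the Dry median in 42 Hot-Dry females, although a single Hot-Dry female exceeded every Dry female (log2 fold change 1.85 ± 0.37 SE, adjusted p = 2.4e-05).

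Chitin genes rose together in Hot-Dry females. The lists named here by a function were assembled by the study from genes that responded to its treatments, and those listed as raised or lowered by heat at 70% humidity were chosen on Hot and Control females, none of which enter the comparison in dry air. Such lists are read beside all genes called at 70%: of 1559 genes higher in Hot than in Control 1183 were higher in dry air (75.9%, median log2 fold change 0.37), and of 1482 lower genes 1124 were lower in dry air (75.8%, median -0.20). Of 35 tested genes of chitin metabolic process, 32 were higher in Hot-Dry than in Dry (91.4%) and 0 lower, with a median log2 fold change of 0.65 against -0.0099 over all genes. Over counts summed per family 28 were higher, and 22 with the estimated correlation. All 13 genes with chitinase activity, which are part of that list, were higher (median 0.99, 13 over summed counts and 9 with the estimated correlation). Among 27 genes with chitin binding, 24 were higher and 0 lower (median 0.59, 20 over summed counts and 16 with the estimated correlation). The same 3 lists had medians of 0.57, 0.96 and 0.48 in Hot against Control. With the 9 females low in vitellogenin left out, 33, 12 and 26 members were higher.

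Of the chitinases named, 3 follow each other in the gene numbering. TC009627 ranged from 54.5 to 2737 cpm in Hot-Dry females (median 799), against 23.8 to 1077 cpm in Dry females (median 233). In 16 Hot-Dry females it was above every Dry female, and it was higher in 11 of 12 families (log2 fold change 1.51 ± 0.23 SE, adjusted p = 2.2e-08). TC009628 ranged from 1.54 to 103 cpm in Hot-Dry females (median 14.2), against 0.130 to 28.3 cpm in Dry females (median 3.92), and it was higher in 12 of 12 families (log2 fold change 1.89 ± 0.32 SE, adjusted p = 3.8e-07). TC009626 was present at 1.15 to 88.1 cpm in Hot-Dry females (median 28.5), against 1.58 to 41.5 cpm in Dry females (median 7.92), with a log2 fold change of 1.41 ± 0.27 SE (adjusted p = 7.1e-06). How reads that map to several genes were counted is not given in the sources used here, so values of close copies in this family are uncertain. TC009176, another chitinase, ranged from 4.87 to 455 cpm in Hot-Dry females (median 114), against 1.07 to 114 cpm in Dry females (median 26.7), and 21 Hot-Dry females exceeded every Dry female (log2 fold change 1.84 ± 0.31 SE, adjusted p = 4.8e-07). TC009180, a chitinase that is also listed as chitin binding, was above the Dry median in 39 Hot-Dry females (log2 fold change 1.21 ± 0.18 SE, adjusted p = 4.6e-09).

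Genes that bind chitin without being listed as chitinases rose as well. TC003275 ranged from 374 to 3801 cpm in Hot-Dry females (median 1435), against 114 to 1421 cpm in Dry females (median 602). Of the Hot-Dry females, 41 lay above the Dry median and 22 above every Dry female, and the gene was higher in 12 of 12 families (log2 fold change 1.31 ± 0.19 SE, adjusted p = 3.6e-09). TC003179 ranged from 14.9 to 219.5 cpm in Hot-Dry females (median 76.2), against 2.34 to 103 cpm in Dry females (median 24.0) and was likewise higher in 12 of 12 families (log2 fold change 1.52 ± 0.22 SE, adjusted p = 5.8e-09). TC003274 was higher in 11 of 12 families (log2 fold change 1.56 ± 0.26 SE, adjusted p = 2.4e-07).

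Most ion channel genes of the lists were higher as well. Of 18 genes of potassium ion transport, 14 were higher and 0 lower (median 0.36, 13 over summed counts and 9 with the estimated correlation), a share of 77.8% that lies near the 75.9% of all genes raised at 70% humidity. Of 6 genes with inward rectifier potassium channel activity, all of them part of that list, 5 were higher (5 over summed counts and 3 with the estimated correlation). Inward rectifiers are channels that pass potassium ions more readily into the cell than out of it. TC011616, an inward rectifier, ranged from 64.5 to 3009.5 cpm in Hot-Dry females (median 424), against 14.9 to 452 cpm in Dry females (median 90.6). It was above every Dry female in 18 Hot-Dry females and higher in 12 of 12 families (log2 fold change 2.05 ± 0.28 SE, adjusted p = 3.8e-10), and at 70% humidity its log2 fold change was 1.15 ± 0.27 SE. TC000334, a potassium transport gene, ranged from 78.9 to 318 cpm in Hot-Dry females (median 134), against 42.0 to 305 cpm in Dry females (median 75.7), so that all 43 Hot-Dry females exceeded the Dry median while the ranges overlapped (log2 fold change 0.69 ± 0.12 SE, adjusted p = 8.4e-07). TC006642 and TC004130 were higher in 12 of 12 families, with log2 fold changes of 0.61 ± 0.081, adjusted p = 1.8e-10 and 0.55 ± 0.076, adjusted p = 1e-09 (± SE).

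Ligand-gated ion channels open when a transmitter or another molecule binds. Of 28 genes with this activity 24 were higher (85.7%, against 16.5% of all genes) and 0 lower (median 0.38). Over summed counts 23 were higher, 12 with the estimated correlation and 16 without the females low in vitellogenin. This list was chosen on Hot-Dry against Control females and shares the Hot-Dry females, so its direction and share are not independent evidence. Of its members, 6 are the inward rectifiers. TC001185 ranged from 8.36 to 26.9 cpm in Hot-Dry females (median 12.2), against 4.47 to 11.8 cpm in Dry females (median 7.54). All 43 Hot-Dry females exceeded the Dry median, 25 exceeded every Dry female, and no family went the other way (log2 fold change 0.79 ± 0.074 SE, adjusted p = 3.1e-18). TC004850 was above the Dry median in all 43 Hot-Dry females and above every Dry female in 20 (log2 fold change 0.61 ± 0.073 SE, adjusted p = 2.9e-12). TC004383 reached 2.71 to 26.5 cpm in Hot-Dry females (median 6.52), against 1.54 to 11.7 cpm in Dry females (median 4.30), with a log2 fold change of 0.86 ± 0.15 SE (adjusted p = 1.8e-06).

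**Figure D2:**
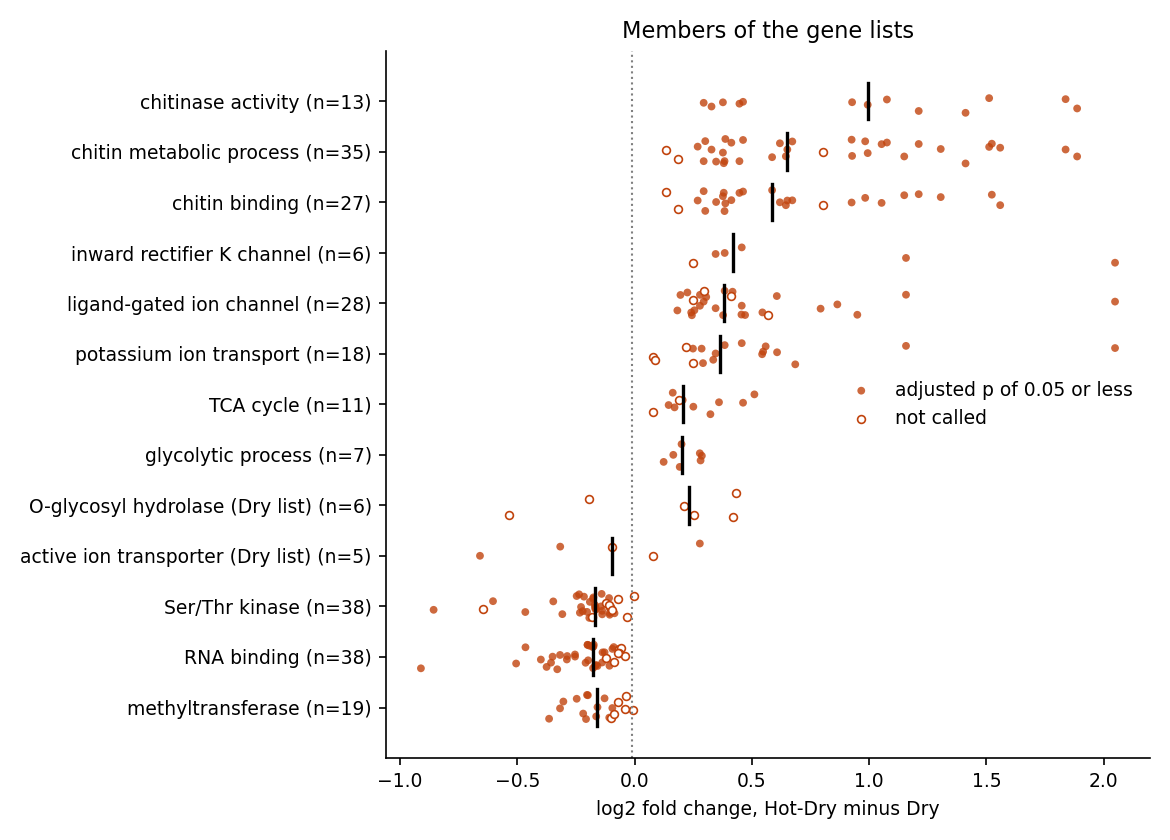
Log2 fold change, Hot-Dry minus Dry, of each tested member of 13 gene lists (points, filled where the adjusted p is 0.05 or less), with the list median as a bar and the median of all genes as a dotted line at -0.0099. Members of the chitin and channel lists lie to the right, and members of the kinase, RNA binding and methyltransferase lists lie to the left at smaller sizes.

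Central carbon metabolism moved by smaller amounts. In the list of the tricarboxylic acid cycle, in which acetyl groups are oxidised in mitochondria, 9 of 11 genes were higher and 0 lower (median 0.21). This share of 81.8% stands beside 16.5% of all genes. Over summed counts 6 were higher, and 6 with the estimated correlation. TC030624 ranged from 360.4 to 694 cpm in Hot-Dry females (median 489), against 240.1 to 451 cpm in Dry females (median 359). Its 43 Hot-Dry females were above the Dry median and 28 were above every Dry female (log2 fold change 0.51 ± 0.055 SE, adjusted p = 2.1e-14). TC004962 was also above the Dry median in all 43 females (log2 fold change 0.32 ± 0.05 SE, adjusted p = 2.7e-08), and TC012587 and TC010587 had log2 fold changes of 0.36 ± 0.089, adjusted p = 0.00062 and 0.25 ± 0.055, adjusted p = 0.00012 (± SE). All 7 genes of the glycolytic process, which splits glucose to pyruvate, were higher over single females (median 0.20), against 16.5% of all genes. Over summed counts 2 were higher, and 0 with the estimated correlation. The glycolytic gene TC006170 ranged from 142 to 497 cpm in Hot-Dry females (median 286), against 147 to 432 cpm in Dry females (median 236), with a log2 fold change of 0.28 ± 0.076 SE (adjusted p = 0.0022). Its females overlapped over most of the range, and the glycolytic genes TC015540, TC006530 and TC000318 had adjusted p-values of 0.015, 0.039 and 0.017 that exceeded 0.05 in 5, 11 and 4 of 29 alternatives. Both lists share the Hot-Dry females on which they were chosen, so their directions and shares are not independent evidence. The share among all genes raised in Hot-Dry against Control is not given here.

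**Figure D3:**
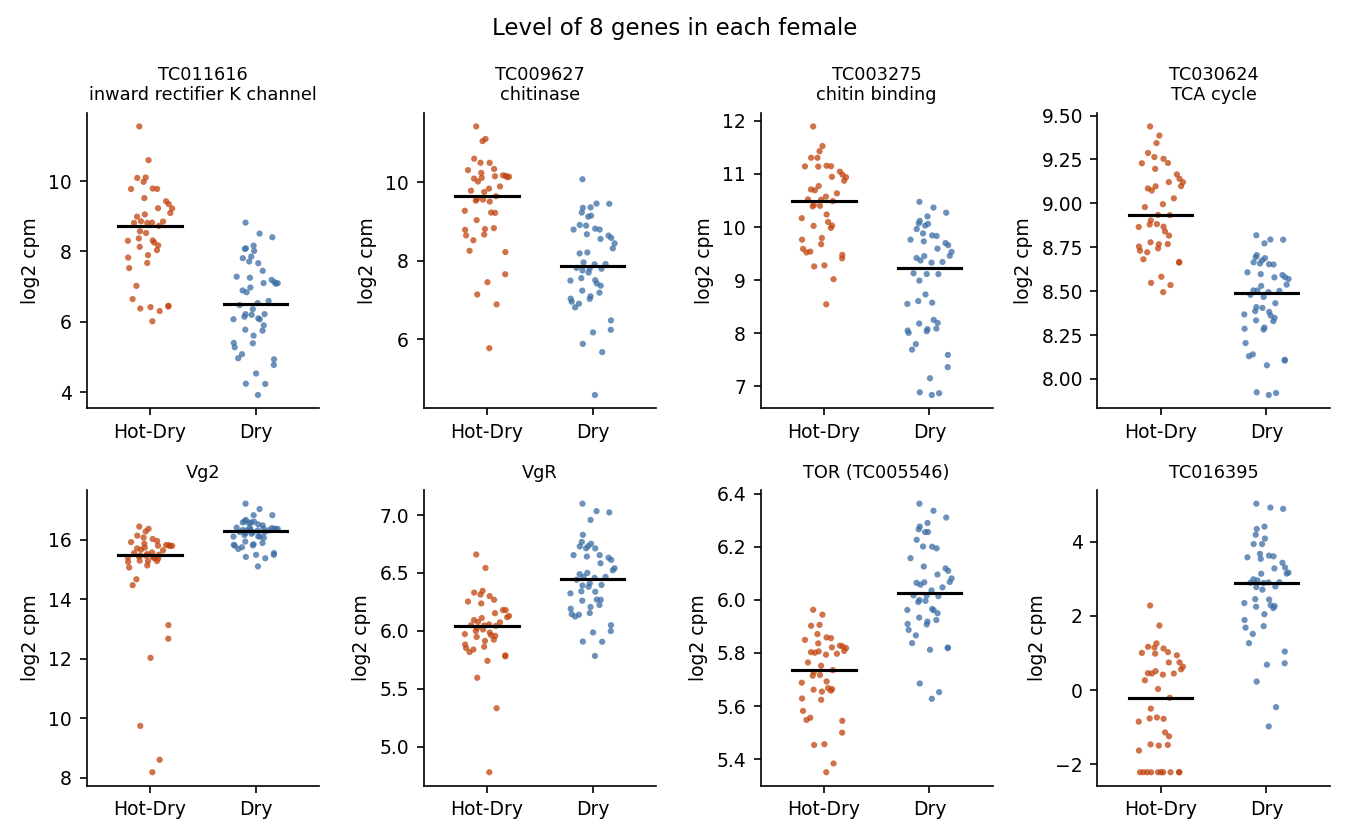
Log2 cpm (vertical axes) of 8 genes in each Hot-Dry female (left in each panel) and Dry female (right), with bars at the medians. The upper 4 genes were higher and the lower 4 were lower in Hot-Dry, and in every panel the females of both conditions overlapped.

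Most listed genes of RNA binding, methyltransferase and protein kinase activity were lower, by small amounts. Of 38 genes with RNA binding, 31 were lower and 0 higher (median -0.18, 26 over summed counts and 18 with the estimated correlation), and of 19 genes with methyltransferase activity, 13 were lower and 0 higher (median -0.16, 10 and 6). Both were listed as lowered by heat at 70% humidity, and their shares of 81.6% and 68.4% stand beside 75.8% of all genes lowered there. TC015608, an RNA-binding gene, ranged from 171 to 346 cpm in Hot-Dry females (median 279), against 275 to 473 cpm in Dry females (median 369.7). All 43 Hot-Dry females were below the Dry median, 19 were below every Dry female, and the gene was lower in 12 of 12 families (log2 fold change -0.40 ± 0.037 SE, adjusted p = 3.1e-18). TC007641 was lower in 12 of 12 families with 21 Hot-Dry females below every Dry female (log2 fold change -0.47 ± 0.063 SE, adjusted p = 5.2e-10). The RNA-binding genes TC008844 and TC005315 fell by 0.50 ± 0.10 and 0.38 ± 0.057 on the log2 scale (± SE).

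Methyltransferases transfer methyl groups to RNA, protein or small molecules. TC002569, in both the RNA-binding and the methyltransferase list, ranged from 34.6 to 69.7 cpm in Hot-Dry females (median 52.3), against 44.9 to 83.9 cpm in Dry females (median 63.1), with a log2 fold change of -0.32 ± 0.044 SE (adjusted p = 6.2e-10). In TC000606 the difference was smaller and lay in the same direction in 12 of 12 families (log2 fold change -0.22 ± 0.037 SE, adjusted p = 4.1e-07). TC000838 and TC000138 were lower in 11 and 10 families (-0.30 ± 0.068, adjusted p = 0.00015 and -0.25 ± 0.074, adjusted p = 0.0055, log2 fold change ± SE). The call of TC000138 was lost over summed counts (adjusted p = 0.059) and with the estimated correlation (adjusted p = 0.18). Of 38 genes with protein serine/threonine kinase activity, 29 were lower and 0 higher (median -0.17). This list shares the Hot-Dry females on which it was chosen, so its direction and share are not independent evidence. Its share of 76.3% stands beside 15.8% of all genes. Over summed counts 24 were lower, and 20 with the estimated correlation. The kinase TC004142 ranged from 24.9 to 41.9 cpm in Hot-Dry females (median 30.9), against 29.8 to 56.8 cpm in Dry females (median 39.0). In 17 Hot-Dry females it was below every Dry female, and it was lower in 12 of 12 families (log2 fold change -0.31 ± 0.043 SE, adjusted p = 9.6e-10). TC014143 and TC014135 had larger falls with wider errors (-0.60 ± 0.15, adjusted p = 0.00052 and -0.47 ± 0.10, adjusted p = 3.9e-05, log2 fold change ± SE), and TC001817 was lower in 11 of 12 families (log2 fold change -0.35 ± 0.065 SE, adjusted p = 5.3e-06).

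Reproduction genes were examined with the list that the study had assembled for egg production. All 6 vitellogenin-related genes were lower in Hot-Dry than in Dry (median log2 fold change -0.44), against 15.8% of all genes. Over summed counts 6 were lower, and 5 with the estimated correlation. Vg2 ranged from 290.5 to 88627 cpm in Hot-Dry females (median 46052), against 35091 to 151109 cpm in Dry females (median 79542). In 41 of 43 Hot-Dry females it was below the Dry median and in 9 below every Dry female (log2 fold change -0.80 ± 0.18 SE, adjusted p = 0.00014). Vg1 ranged from 296 to 152095 cpm in Hot-Dry females (median 71631), against 45256 to 207651 cpm in Dry females (median 108369), with 40 females below the Dry median (log2 fold change -0.66 ± 0.17 SE, adjusted p = 0.0014). Without the 9 females low in vitellogenin the log2 fold changes were -0.53 for Vg2 (adjusted p = 0.0016) and -0.40 for Vg1 (adjusted p = 0.019), and the mean family difference in the log2 of their summed level was -1.16 with all females and -0.46 without the 9.

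Vitellogenin receptor genes, which serve yolk uptake, were lower too. VgR (TC008595) ranged from 27.2 to 101 cpm in Hot-Dry females (median 65.7), against 54.9 to 137 cpm in Dry females (median 87.2). It was below the Dry median in 41 Hot-Dry females and lower in 11 of 12 families (log2 fold change -0.44 ± 0.064 SE, adjusted p = 6.1e-09). VgR-1 (TC004042) ranged from 19.1 to 62.9 cpm in Hot-Dry females (median 44.9), against 35.2 to 93.5 cpm in Dry females (median 56.7), with a log2 fold change of -0.44 ± 0.067 SE (adjusted p = 1.6e-08). VgR-2 (TC008596) ranged from 265 to 567 cpm in Hot-Dry females (median 415), against 369 to 764 cpm in Dry females (median 504), and 9 Hot-Dry females lay below every Dry female (log2 fold change -0.32 ± 0.053 SE, adjusted p = 2.1e-07). The call of VgR2 (TC008425) was near the threshold (log2 fold change -0.33 ± 0.13 SE, adjusted p = 0.046) and was lost in 15 of 29 alternatives, over which its log2 fold change lay between -0.44 and -0.23.

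Putative ovarian genes showed small falls: 10 of 14 were lower (71.4%, against 15.8% of all genes), 0 were higher and 4 were not called (median -0.14). Over summed counts 8 were lower, and 6 with the estimated correlation. Vasa (TC010103), an RNA helicase of the germ line, ranged from 30.6 to 109.8 cpm in Hot-Dry females (median 84.1), against 64.8 to 138 cpm in Dry females (median 94.9). It was lower in 12 of 12 families (log2 fold change -0.27 ± 0.06 SE, adjusted p = 0.00013). Piwi (TC008711) and Spindle E (TC014516), which act in silencing of transposons by small RNAs in the *Drosophila* germ line, had log2 fold changes of -0.12 ± 0.032, adjusted p = 0.0012 and -0.17 ± 0.038, adjusted p = 0.00021 (± SE). Mago nashi (TC016112), an exon junction protein that serves messenger RNA localisation in *Drosophila* oocytes, was lower in 11 of 12 families (log2 fold change -0.30 ± 0.079 SE, adjusted p = 0.0014). The RNA-binding protein TC011262 and Hemipterous (TC000385), a kinase, were lower in 9 families each (-0.16 ± 0.049, adjusted p = 0.0061 and -0.13 ± 0.045, adjusted p = 0.021, log2 fold change ± SE; adjusted p = 0.13 and 0.21 with the estimated correlation), and the unnamed gene TC010546 in 11 (log2 fold change -0.21 ± 0.041 SE, adjusted p = 1.6e-05).

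The summed levels of these lists were also read as markers of the tissues that make and take up yolk. The sums hold the same genes as the paragraphs above, so their falls are not independent evidence. The 2 vitellogenins summed to 586 to 240722 cpm in Hot-Dry females (median 119335), against 80807 to 358760.0 cpm in Dry females (median 188434). The 4 receptor genes summed to 396 to 819 cpm in Hot-Dry (median 613), against 532 to 1065 cpm in Dry (median 776), and the 14 ovarian genes to 1053 to 1447 cpm in Hot-Dry (median 1326), against 1300.4 to 1739 cpm in Dry (median 1462). No marker list was at 0 in any female, and the ranges overlapped in all 3 lists. Over families, the log2 of the sums differed by -1.16, -0.34 and -0.15 in vitellogenins, receptors and ovarian genes, lower in 11, 11 and 12 of 12 families (exact two-sided sign-flip permutation tests, p = 0.0024, 0.0015 and 0.00049, adjusted over the 3 lists 0.0024, 0.0022 and 0.0015). The last raw value is the smallest that 12 families allow. The part of these tissues in the changes of other genes was not tested.

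Ecdysteroid genes moved in part. Of 14 genes of synthesis and action of 20-hydroxyecdysone, 6 were lower and 1 higher (median -0.11). The shares, 42.9% and 7.14%, stand beside 15.8% and 16.5% of all genes. Over summed counts 5 were lower and 0 higher, and 4 were lower with the estimated correlation. The enzymes Disembodied (TC014691), Phantom (TC001916) and Shade (TC011231) catalyse late steps of the synthesis, Shade the last. The synthesis genes Shadow (TC014274) and Spookier (TC004159) were not called (log2 fold changes of -0.077 ± 0.093 and 0.032 ± 0.12 SE, adjusted p = 0.56 and 0.86). Disembodied ranged from 109.7 to 197 cpm in Hot-Dry females (median 167), against 159 to 267 cpm in Dry females (median 198). All 43 Hot-Dry females lay below the Dry median, 13 lay below every Dry female, and the gene was lower in 12 of 12 families (log2 fold change -0.30 ± 0.036 SE, adjusted p = 2.4e-12). Shade was likewise below the Dry median in all 43 females (log2 fold change -0.30 ± 0.06 SE, adjusted p = 1.4e-05), and Phantom was lower in 9 families (log2 fold change -0.26 ± 0.077 SE, adjusted p = 0.0045, and adjusted p = 0.22 with the estimated correlation).

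The receptor EcR (TC012112) binds the hormone, and the nuclear receptor FTZ-F1 (TC002550) acts downstream of it. EcR ranged from 3.78 to 12.8 cpm in Hot-Dry females (median 7.66), against 5.88 to 15.6 cpm in Dry females (median 9.52), with a log2 fold change of -0.33 ± 0.076 SE (adjusted p = 0.00023). FTZ-F1 ranged from 39.4 to 95.8 cpm in Hot-Dry females (median 56.1), against 44.2 to 97.5 cpm in Dry females (median 71.3), lower in 11 of 12 families (log2 fold change -0.33 ± 0.068 SE, adjusted p = 2.8e-05). HR39 (TC014986) and Spookier-related (TC015030) were called in opposite directions (-0.14 ± 0.048, adjusted p = 0.019 and 0.32 ± 0.12, adjusted p = 0.034, log2 fold change ± SE), and their calls were lost in 8 and 9 of 29 alternatives. HR38 (TC013146) was not called (log2 fold change 0.26 ± 0.19 SE, adjusted p = 0.32), with 37 Hot-Dry females above the Dry median and a highest Dry female at 171 cpm, but was higher with family as a replicate block (log2 fold change 0.45, adjusted p = 0.024). Over sums per family with that block, and with the estimated correlation, it was not called (adjusted p = 0.097 and 0.092). Of the 2 genes listed as nuclear receptors, SVP (TC001722) was lower (log2 fold change -0.36 ± 0.081 SE, adjusted p = 0.00015) and E75 (TC012440) was not called.

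In the insulin and TOR pathways, 4 of 13 genes were lower (30.8%, against 15.8% of all genes), 0 were higher and 9 were not called (median -0.018, 4 lower over summed counts and 3 with the estimated correlation). TOR (TC005546), a kinase that joins nutrient supply to growth, ranged from 40.6 to 62.1 cpm in Hot-Dry females (median 53.1), against 49.2 to 82.0 cpm in Dry females (median 64.9). All 43 Hot-Dry females were below the Dry median, 10 were below every Dry female, and all 12 families went the same way (log2 fold change -0.32 ± 0.035 SE, adjusted p = 3.3e-14). A further gene listed as TOR (TC009906) was lower in 10 families (log2 fold change -0.25 ± 0.071 SE, adjusted p = 0.0033, and adjusted p = 0.099 with the estimated correlation). Akt (TC007749), the kinase that passes on the insulin signal, and GATA-1 (TC010405), a transcription factor, fell by 0.14 ± 0.032 and 0.27 ± 0.056 on the log2 scale (± SE). PI3K (TC011996), Tsc (TC002959) and S6K1 (TC011817), which lie above and below Akt and TOR in signalling, were not called, with log2 fold changes of 0.048 ± 0.043, -0.051 ± 0.037 and 0.12 ± 0.062 (± SE).

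Among 7 genes of juvenile hormone, 1 was lower, 0 were higher and 6 were not called (median -0.067, 2 lower over summed counts and 0 with the estimated correlation). The share that was lower, 14.3%, is close to the 15.8% of all genes. JHAMT (TC008471), which makes the hormone in its last steps, ranged from 0.595 to 4.38 cpm in Hot-Dry females (median 1.89), against 0.907 to 6.49 cpm in Dry females (median 2.37), and its females overlapped widely (log2 fold change -0.36 ± 0.13 SE, adjusted p = 0.024). Without the 9 females low in vitellogenin its adjusted p was 0.058. A further gene listed as JHAMT (TC008469), with means of 4.03 cpm in Hot-Dry and 4.18 cpm in Dry, was not called (log2 fold change -0.047 ± 0.21 SE, adjusted p = 0.88). The hormone receptor Met (TC003908), the hormone-responsive factor Kr-h1B (TC012990) and the degrading esterase JHE (TC013193) were not called, with log2 fold changes of -0.23 ± 0.10, -0.19 ± 0.16 and -0.067 ± 0.046 (± SE). With family as a replicate block Met was lower (log2 fold change -0.22, adjusted p = 0.0026), so that 2 genes of the list were lower. The epoxide hydrolase JHEH (TC002992), which also degrades the hormone, had a log2 fold change of 0.18 ± 0.091, adjusted p = 0.13, and of 0.32 without the 9 females (adjusted p = 0.002), when 2 genes of the list were higher and 0 lower.

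**Figure D4:**
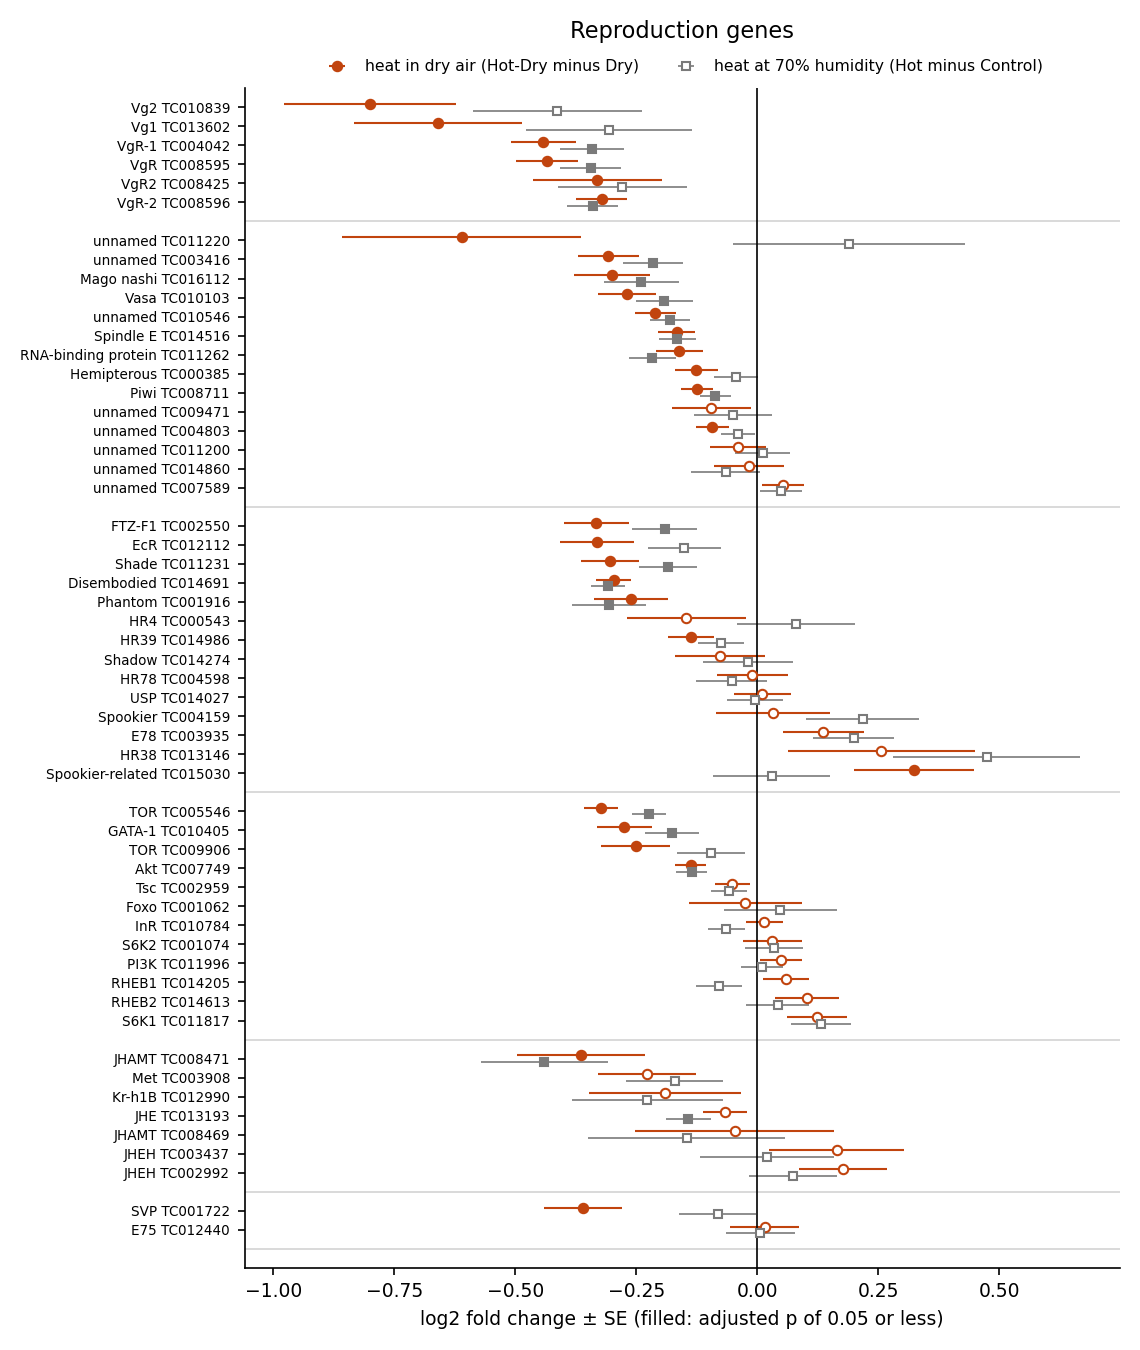
Log2 fold change ± SE (horizontal axis) of the reproduction genes that are reported, in dry air (circles, Hot-Dry minus Dry) and at 70% humidity (squares, Hot minus Control), filled where the adjusted p is 0.05 or less, in the order vitellogenin-related, ovarian, ecdysteroid, insulin and TOR, juvenile hormone and nuclear receptor genes. The 6 vitellogenin-related genes lie left of 0 in both humidities, with 6 called in dry air and 3 at 70% humidity.

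Heat in dry air was then set beside heat at 70% humidity, where 1559 genes were higher (12.9%) and 1482 lower (12.2%) in Hot than in Control. The comparisons share families but no female. Across the 12113 genes, which are not independent replicates, their log2 fold changes had a Pearson r of 0.82 and a slope of 0.91, and r was 0.88 over the 8756 genes that averaged 5 cpm or more. Both comparisons called 2307 genes in the same direction, 59.0% of the calls in dry air and 75.9% of those at 70%, and 1 gene in opposite directions. Of 1602 genes called in dry air and not at 70%, 1512 had the same sign at 70%.

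Genes called in one humidity mostly had the same direction in the other. Genes raised at 70% had a median log2 fold change of 0.37 in dry air, against 0.40 at 70%, where they were chosen, and 1540 of the 1559 were positive. Genes lowered at 70% had medians of -0.20 in dry air and -0.21 at 70%, and 1472 of the 1482 were negative. Chosen the other way, genes raised in dry air had medians of 0.38 in dry air and 0.28 at 70%, and lowered ones of -0.24 and -0.17. Over all genes the mean absolute log2 fold change was 0.22 in dry air and 0.19 at 70%. For each female the mean log2 cpm of the raised genes minus that of the lowered genes was taken as a heat score. Its genes were chosen by the contrast of Hot with Control, in a model whose scaling and dispersions were estimated over all females, Hot-Dry and Dry included. It was -0.97 to -0.26 in Hot-Dry females (median -0.68), against -1.69 to -1.09 in Dry females (median -1.39). The ranges did not overlap: all 43 Hot-Dry females exceeded all 48 Dry females, although no single gene did so. Hot and Control females of the same families were used to choose the genes.

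**Figure D5:**
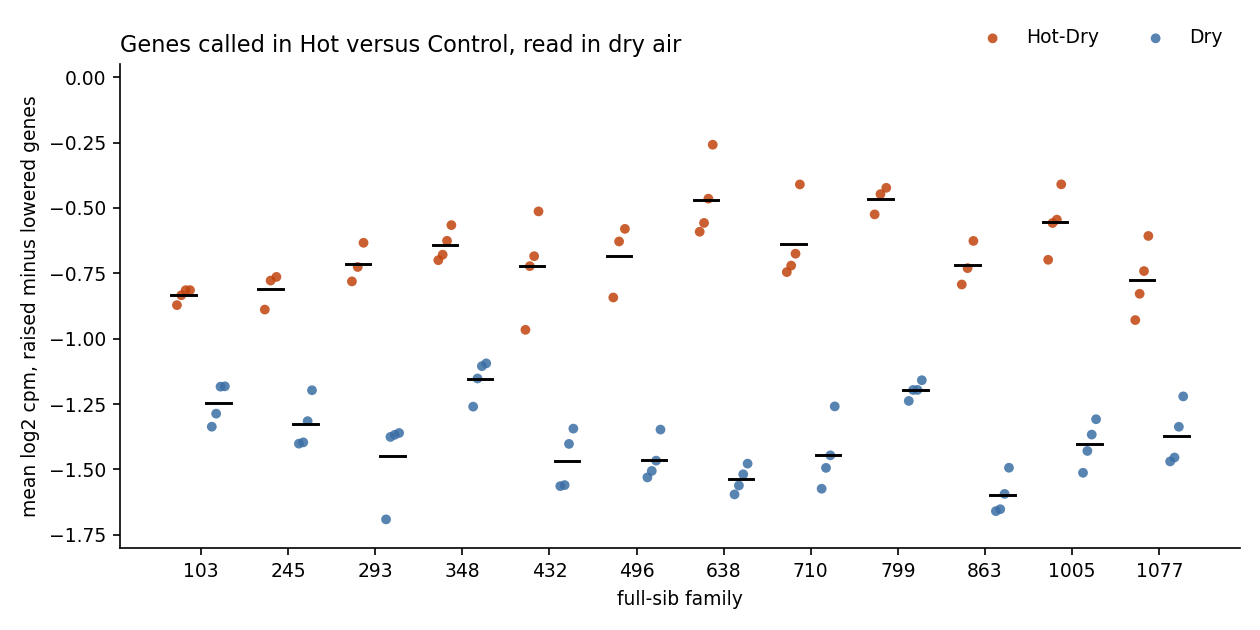
Mean log2 cpm of the 1559 genes higher minus that of the 1482 genes lower in Hot than in Control (vertical axis), in each Hot-Dry and Dry female by full-sib family (horizontal axis); points are females and bars are family means. Every Hot-Dry female (-0.97 to -0.26) lies above every Dry female (-1.69 to -1.09).

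The shift varied among families, a difference that was not tested. The median difference over the raised genes was 0.49 in family 638, where 91.5% of them were higher in Hot-Dry, and 0.18 in family 103, where 73.1% were. Over the lowered genes the family medians ran from -0.29 in family 638 to -0.098 in family 103. Family 348 had the lowest percentage of raised genes that were higher (70.7%), and family 1077 the lowest percentage of lowered genes that were lower (69.6%). In all 12 families both medians had the direction seen at 70% humidity.

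A test of the difference between the heat responses called 1 of 12113 genes (0.00826%), with 524 genes at an unadjusted p under 0.05 (4.33%). None of the 1602 genes called in dry air alone passed this test, and 253 of them had an unadjusted p under 0.05, so a call in dry air and none at 70% did not show a different response. The called gene, TC009418, has no listed function and was named after its values were seen. It ranged from 0.293 to 5.42 cpm in Hot-Dry females (median 1.59), against 0 to 3.08 cpm in Dry females (median 1.07), and 7 Hot-Dry females exceeded every Dry female. Its log2 fold change was 0.72 ± 0.19 SE in dry air (adjusted p = 0.0012, and 0.088 with the estimated correlation) and -0.58 ± 0.20 SE at 70% humidity (adjusted p = 0.022), a difference of 1.30 ± 0.27 SE (adjusted p = 0.047). No gene was called by this test over counts summed per family, with relative log expression scaling or with limma-voom.

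Within 2 function lists of the study, genes listed as responding to drought had no common direction. Of 6 genes with O-glycosyl hydrolase activity, listed as lowered in Dry against Control, 0 were called by edgeR, over summed counts or with the estimated correlation, and 1 had an unadjusted p under 0.05 (median log2 fold change 0.23). Of 5 active ion transmembrane transporter genes, listed as raised in Dry against Control, 2 were lower (40%) and 1 higher (20%), with a median of -0.096. Of all genes 15.8% were lower and 16.5% higher. With the estimated correlation 1 of the 5 was lower and 0 higher. Both lists were chosen on Dry females that the comparison shares. TC014032, an ion transporter, ranged from 7.92 to 34.5 cpm in Hot-Dry females (median 18.2), against 11.1 to 57.5 cpm in Dry females (median 27.7), lower in 11 of 12 families (log2 fold change -0.66 ± 0.11 SE, adjusted p = 1.3e-07). The transporters TC030633 and TC000573 were called in opposite directions (-0.32 ± 0.092, adjusted p = 0.0041 and 0.28 ± 0.08, adjusted p = 0.0039, log2 fold change ± SE), and both calls were lost with the estimated correlation (adjusted p = 0.066 and 0.11).

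Of 3 further genes that the text of the study describes, the serine protease TC000870, of oocyte development, ranged from 0.161 to 43.1 cpm in Hot-Dry females (median 22.3), against 8.83 to 47.3 cpm in Dry females (median 32.9), lower in 12 of 12 families (log2 fold change -0.49 ± 0.16 SE, adjusted p = 0.01). Without the 9 females low in vitellogenin its log2 fold change was -0.25 (adjusted p = 0.18), and over all females its call was lost with the estimated correlation (adjusted p = 0.15). The dual oxidase TC004593, an enzyme that makes hydrogen peroxide, was lower (log2 fold change -0.27 ± 0.10 SE, adjusted p = 0.039) with its call lost in 9 of 29 alternatives, and Argonaute-1 (TC005857), of small RNA silencing, was not called (log2 fold change -0.044 ± 0.045 SE, adjusted p = 0.48).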

How the data were processed

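The authors deposited 1 table of raw counts, reads per gene and female with no normalization: according to the study's methods, mRNA of whole females was sequenced single-end, and reads were mapped with STAR 2.5 to the Tcas3 genome and counted with featureCounts. The sequencing run of each female is not given in the sources used here, so no values within runs are shown. All columns were assigned through their labels. The number before the hyphen in a female's name was read as the full-sib family.

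Counts were scaled by TMM in R 4.3.3 with edgeR 4.0.16, and edgeR's quasi-likelihood test was run on 12113 of 17078 genes in a model of the 4 condition means over all females of the series, with Benjamini-Hochberg adjustment over these genes. A log2 fold change is Hot-Dry over Dry, and its SE is its absolute value divided by the root of F. The test was checked on simulated counts with known changes. It called 78 of 100 genes changed by 0.5 on the log2 scale and 97 of 100 changed by 1, with 8 false calls. The test between humidities called 15 unchanged genes in these counts, in which 200 genes were changed in Hot-Dry alone. Simulated females were drawn independently, so the check does not cover the likeness of sisters.

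Family numbers pair the samples, since sisters were divided over conditions: deviations of Hot-Dry and Dry family means from their condition means correlated at 0.15 to 0.56 within families. Between different families the mean correlation was -0.034. Of the 12 Hot-Dry families, 8 were most like their own Dry family, and the others were more like another one. Libraries were distinct, with a chi-square per gene of at least 14.3 between any 2 libraries of a condition.

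Named genes were the 12 largest rises and 12 largest falls among called genes that averaged 5 cpm or more and had at least 10 of 12 families in the direction (unannotated ones limited to the first 2 of each), the reproduction genes with a given name (1 of them is not reported here), and up to 4 called members of each list. Genes described in the study's text, TC009418, TC010546 and all function lists except potassium transport, chitin metabolic process, the tricarboxylic acid cycle and kinases were added after the counts were seen. The members and lists were chosen with earlier results of these data known. Just 1 of the 17078 identifiers matched the RefSeq table, so tissue markers chosen by product name (muscle, gut, nerve) were not analysed here.

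Alternatives were other normalizations (relative log expression, upper quartile), filters, thresholds and tests (likelihood ratio, robust quasi-likelihood, limma-voom 3.58.1 with and without a correlation within family and condition, DESeq2 1.42.0), the 91 females alone, library size as covariate, leaving out Vg1 and Vg2, a block by family or by the 48 numbers, sums per family, and leaving out each family. Leaving out the 9 Hot-Dry females low in vitellogenin, or the 4 whose correlation with their group mean lay below that of every Dry female, was chosen after seeing the data.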

Additional observations from a re-analysis of the deposited data

Results flagged for a closer look

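The heat response of TC009418, a gene with no listed function, differed between humidities by the test of the difference itself. Its log2 fold change was 0.72 ± 0.19 SE in dry air and -0.58 ± 0.20 SE at 70% humidity, which differ by 1.30 ± 0.27 SE (edgeR quasi-likelihood, adjusted p = 0.047, 1 call among 12113 genes). The test called 0 genes over sums per family, with relative log expression scaling or with limma-voom, and with the estimated correlation the difference of TC009418 in dry air was not called (limma-voom, adjusted p = 0.088). The gene averaged 1.90 ± 1.15 cpm in Hot-Dry, 1.16 ± 0.68 cpm in Dry, 0.781 ± 0.52 cpm in Hot and 1.17 ± 0.80 cpm in Control (SD, n = 43, 48, 45 and 47), levels not far above the filter of 0.5 cpm. In dry air it was higher in 11 of 12 families, with family differences in log2 cpm of -0.91 to 2.16.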

How the results depend on the processing

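The count of 3910 genes called between Hot-Dry and Dry was 1558 when limma-voom allowed for the likeness of sisters in 1 condition, 2560 at an adjusted p of 0.01, and between 3314 (without family 638) and 4118 (without family 1077) when families were left out in turn. With the replicate block by family, which the pairing of sisters allows, 4766 genes were called, and 3897 of them were called without it. Upper quartile scaling changed the share of calls that were higher to 56.2%, against 51.0% with TMM.

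The test between humidities called 1 gene, and 0 genes with relative log expression scaling, the replicate block of 48 numbers, sums per family, library size as covariate, either limma-voom fit, an adjusted p of 0.01 or without the 4 Hot-Dry females least like their group. It called 2 genes with no filter, the likelihood ratio test or DESeq2, and 0 to 3 when families were left out in turn (3 without family 1077 or 799).

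Among juvenile hormone genes 1 was called, as lower, against 2 lower over sums per family. Without the 9 females low in vitellogenin 2 were higher and 0 lower. Without the 4 females least like their group 2 were higher and 1 lower. Of 7 glycolytic genes, 2 were called over sums per family. For the 81 named genes, 2253 of 2347 values kept direction and side of the threshold, 82 lost the call, 12 gained it and 0 reversed. Of 72 called, 54 were called under each alternative. The mean family difference in vitellogenin share stayed between -7.14 and -5.88 points with families left out in turn. Low levels limit single genes: 3 counts are 0.331 cpm in a median Hot-Dry library and 0.312 cpm in a median Dry library.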
